A study of Mus musculus with 4 samples.

Results

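The genes described here encode the precursors of 10 hypothalamic neuropeptides: Hcrt, Pmch, Avp, Oxt, Trh, Crh, Gal, Cartpt, Agrp and Npy. Their probes were taken as the non-control probes whose accession in the array files belongs to one of these genes. That rule found 10 of the 41174 probes on the arrays, for 9 of the 10 genes, with 2 probes for Cartpt and 1 for each other gene. No probe was matched to Crh by accession, so Crh was not analysed here.

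Total RNA of whole brain was compared between 3 groups of mice, all 50 weeks old. The groups were SAMP8 (senescence-accelerated mouse prone 8) on a low-safflower oil control diet (LSO), SAMP8 fed a whale meat extract supplement (WME) and the companion strain SAMR1 on LSO. The labels give AKR/J as the background of the mice, with outcrossing to a line not known suspected. The mice ate chow until 24 weeks of age and then an experimental diet for 26 weeks, and all went through behavioural tests at 49 weeks. Each group was represented by 1 RNA, and the sources used here do not give the number of mice in it. The diet pair of arrays set SAMP8 WME beside SAMP8 LSO, and the strain pair set SAMP8 LSO beside SAMR1 LSO, each pair with the dyes Cy3 and Cy5 exchanged. Ratios are given as log2 of SAMP8 WME over SAMP8 LSO and of SAMP8 LSO over SAMR1 LSO. The sum of both is an indirect ratio of SAMP8 WME over SAMR1 LSO, which passes through the SAMP8 LSO RNA that both pairs share.

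These peptides are made as precursors, cut by prohormone convertases, stored in dense-core granules and released to act on G protein-coupled receptors. Hcrt (hypocretin, or orexin) and Pmch (melanin-concentrating hormone) come from neurons of the lateral hypothalamus and are known for their part in wakefulness, sleep and feeding. Avp (vasopressin) and Oxt (oxytocin) are made by magnocellular and parvocellular neurons of the supraoptic and paraventricular nuclei and act on water balance, birth, lactation and social behaviour. Agrp and Npy drive feeding from the arcuate nucleus, Cartpt restrains it, Trh (thyrotropin-releasing hormone) drives the thyroid axis and Gal (galanin) acts in many hypothalamic nuclei. Several of these genes, among them Npy, Gal, Cartpt and Trh, are also expressed outside the hypothalamus. A ratio from whole brain RNA covers all sources of a gene. In such bulk RNA, fewer cells of a type and less RNA per cell cannot be told apart.

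The bases upstream of Hcrt, Avp and Oxt are shown because these members had the largest ratios and because Avp and Oxt lie next to each other in the genome, with 0 genes between them in the RefSeq gene table. They are from RefSeq, assembly GRCm38.p6, written 5′ to 3′ on the strand of the gene and ending at the base before the annotated start. Capitals mark matches, on either strand, to any of 3 motifs searched: TATAAA (the core promoter box that binds TBP), TGACGTCA (the cyclic AMP response element) and AGGTCA (a half-site of nuclear receptors). No 2 of the motifs overlapped in these sequences. The regions are chr11:100762932-100763181 on the minus strand for Hcrt, chr2:130582589-130582838 on the minus strand for Avp and chr2:130575919-130576168 on the plus strand for Oxt.
Hcrt: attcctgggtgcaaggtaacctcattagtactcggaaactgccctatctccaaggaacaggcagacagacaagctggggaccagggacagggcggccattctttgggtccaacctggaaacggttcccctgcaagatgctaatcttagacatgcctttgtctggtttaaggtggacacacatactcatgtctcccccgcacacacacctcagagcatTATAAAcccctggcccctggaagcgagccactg
Avp: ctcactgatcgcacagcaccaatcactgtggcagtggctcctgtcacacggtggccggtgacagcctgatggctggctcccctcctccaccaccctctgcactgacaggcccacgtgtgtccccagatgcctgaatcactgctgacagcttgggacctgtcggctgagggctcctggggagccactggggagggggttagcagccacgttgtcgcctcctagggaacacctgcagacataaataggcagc
Oxt: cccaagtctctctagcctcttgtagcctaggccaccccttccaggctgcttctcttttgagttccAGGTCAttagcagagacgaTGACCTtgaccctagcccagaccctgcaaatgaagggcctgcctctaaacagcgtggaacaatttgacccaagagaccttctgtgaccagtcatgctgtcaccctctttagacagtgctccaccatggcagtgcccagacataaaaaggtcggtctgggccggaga

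Hcrt had 1 match to TATAAA, beginning 33 bases before the start. Oxt had 2 matches to AGGTCA, beginning 185 and 166 bases before it and lying on opposite strands, and Avp had no match to any of the 3. Over the 32851 promoter windows of 300 bases in the same RefSeq table (250 before and 50 after the start), 13.6% held TATAAA, 1.79% held TGACGTCA and 16.3% held AGGTCA. A match is a description of letters and shows no binding. Of the 10 listed genes, 8 were in that table. The array files name a mouse build older than GRCm38.p6, so the probes were given no coordinates here.

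All 9 genes with a probe were measured in both pairs, meaning well above background in the same RNA on both arrays. None reached 1.5-fold with one sign on each array of a pair, the rule used here for a called feature. That is 0 of 9 members against 0.0863% of all 26661 measured features (a gene, or a transcript with no gene name) in the diet pair and 1.46% of 26937 in the strain pair. It is also 0 of 9 against 1.14% of 26390 for the indirect ratio, where all 4 sums of a diet and a strain array had to pass. Below, a gene said to pass 1.5-fold met these rules, and these shares also stand beside the counts of each gene list. At 1.3-fold the shares were 0.158%, 2.79% and 2.11%, and the members past it were 0, 1 and 1 of 9. Hcrt was the member past 1.3-fold in the strain pair and in the indirect ratio. With 1 RNA a group there was no test, and the SD given with a ratio is over the 2 dye orientations of the same RNAs, so it holds no spread between mice.

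**Figure D1:**
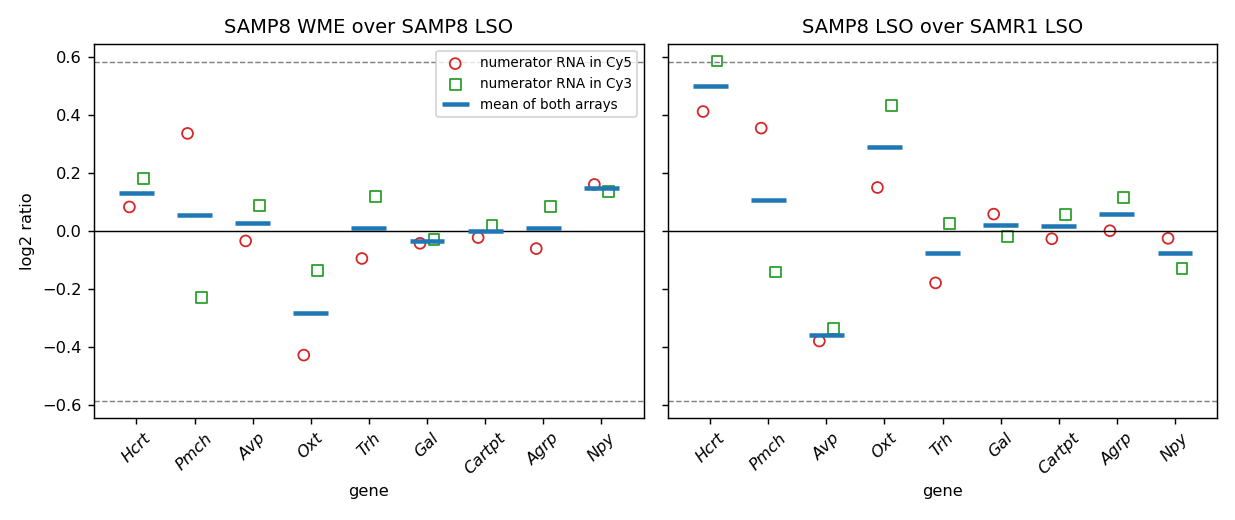
Log2 ratio of each member gene (vertical axis) on each array, for the diet pair (left) and the strain pair (right). Circles are arrays with the numerator RNA in Cy5, squares those with it in Cy3, bars the mean of both, and dashed lines mark 1.5-fold; Hcrt and Oxt lay above 0 and Avp below 0 on both strain arrays, and Oxt lay below 0 on both diet arrays.

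Hcrt was higher in the SAMP8 LSO RNA than in the SAMR1 RNA on both strain arrays. Its probe, A_51_P308931, gave log2 ratios of 0.41 and 0.59, a mean of 0.50 ± 0.12 (SD, 2 arrays) or 1.41-fold. Of the 26937 features measured in the strain pair, 409 (1.52%) had a ratio as high or higher. Normalized log2 intensities of Hcrt were 11.58 and 11.56 in SAMR1 LSO, 12.10, 11.98, 11.99 and 12.15 in SAMP8 LSO, and 12.19 and 12.16 in SAMP8 WME. The SAMR1 channels lay below every SAMP8 channel with no overlap. Between the SAMP8 RNAs the gap was narrow, the lowest WME channel standing at 12.157 and the highest LSO channel at 12.148. The diet ratios of Hcrt were 0.084 and 0.18, a mean of 0.13 ± 0.07 (SD, 2 arrays).

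The indirect Hcrt ratio, SAMP8 WME over SAMR1 LSO, was 0.63 ± 0.14 or 1.55-fold, the highest among the 9 members. Its 4 sums ran from 0.50 to 0.77, and the lowest was below the 0.58 that 1.5-fold requires. Of 26390 features, 259 (0.98%) had an indirect ratio as high or higher. The receptors of the hypocretins did not share that size of ratio. Hcrtr1 stood at 0.04 ± 0.10 in the strain pair and 0.03 ± 0.02 in the diet pair, and Hcrtr2 at −0.13 ± 0.01 and 0.13 ± 0.04 (SD, 2 arrays). By this brighter probe Hcrtr2 was thus below 0 on both strain arrays and above 0 on both diet arrays. A dimmer Hcrtr2 probe read −0.22 and 0.02 on the strain arrays and 0.14 and 0.06 on the diet arrays.

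Pmch, from the other large neuron group of the lateral hypothalamus, had no ratio that held its sign when the dyes were exchanged. Its diet ratios were 0.34 and −0.23 (mean 0.06 ± 0.40, SD, 2 arrays) and its strain ratios 0.36 and −0.14 (mean 0.11 ± 0.35). The normalized log2 intensity of its probe, A_52_P418814, followed the dye: in Cy3 it was 12.78 in SAMR1, 12.91 and 12.88 in SAMP8 LSO and 12.91 in SAMP8 WME. In Cy5 it was 13.02 in SAMR1, 13.14 and 13.14 in SAMP8 LSO and 13.25 in SAMP8 WME. Every Cy5 value was above every Cy3 value, whichever RNA was labelled. Within each dye, SAMR1 had the lowest value. Mchr1, the receptor of melanin-concentrating hormone, had ratios of 0.03 ± 0.04 in the diet pair and 0.07 ± 0.05 in the strain pair.

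Avp was lower in SAMP8 LSO than in SAMR1 LSO on both strain arrays, with log2 ratios of −0.38 and −0.33 (mean −0.36 ± 0.03, SD, 2 arrays, or 1.28-fold lower). Of 26937 features, 407 (1.51%) had a strain ratio as low or lower. Normalized log2 intensities of its probe, A_51_P136508, were 12.14 and 12.07 in SAMR1, 11.77, 11.73, 11.76 and 11.74 in SAMP8 LSO, and 11.74 and 11.82 in SAMP8 WME. SAMR1 stood above all 6 SAMP8 channels, while the SAMP8 diets overlapped. The diet ratios were −0.03 and 0.09 (mean 0.03 ± 0.09). The indirect ratio was −0.33 ± 0.09, and its 4 sums ran from −0.41 to −0.25, all below 0.

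The vasopressin receptor Avpr1a, which carries much of the peptide's action in brain, was also below 0 on both strain arrays. Its ratios there were −0.37 and −0.42 (mean −0.39 ± 0.03, SD, 2 arrays), and its diet ratio was 0.12 ± 0.21. Avpr1b, the receptor of pituitary corticotrophs, had a strain ratio of 0.00 ± 0.17. The kidney receptor Avpr2 was not well above background in the diet pair and had a strain ratio of 0.02 ± 0.17.

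Oxt was the member with the lowest diet ratio. Its probe, A_52_P597264, gave −0.43 and −0.14 on the diet arrays (mean −0.28 ± 0.21, SD, 2 arrays, 1.22-fold lower with WME), and 51 of 26661 features (0.191%) were as low or lower. In the strain pair it gave 0.15 and 0.43 (mean 0.29 ± 0.20, 1.22-fold higher in SAMP8 LSO), with 3.28% of features as high or higher. Normalized log2 intensities were 11.01 and 10.93 in SAMR1, 11.46, 11.24, 11.16 and 11.36 in SAMP8 LSO, and 11.03 and 11.10 in SAMP8 WME. All 4 SAMP8 LSO channels were above the SAMP8 WME and SAMR1 channels. The lowest WME channel, at 11.03, lay just above the highest SAMR1 channel, at 11.01. Both pairs used the same SAMP8 LSO RNA, so its level entered both ratios with opposite sign, and the indirect ratio was 0.01 ± 0.29. Oxt and Avp are neighbours in the genome and both have neurons in the supraoptic and paraventricular nuclei, but whole brain RNA covers any other source of either gene. Their strain ratios had opposite signs. Oxtr, the oxytocin receptor, had no probe named through an accession and was not analysed here.

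**Figure D2:**
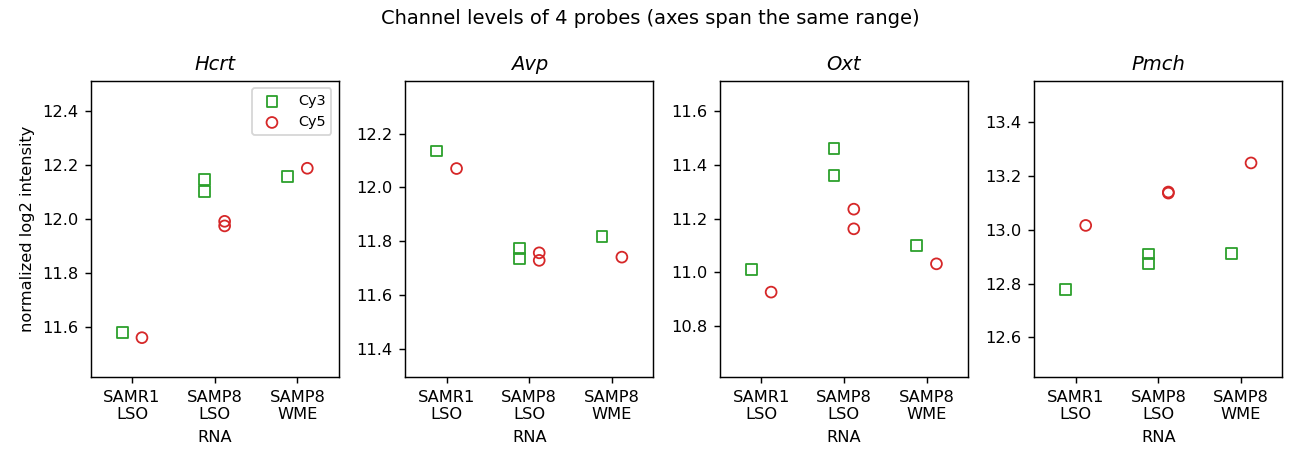
Normalized log2 intensity (vertical axis) of the Hcrt, Avp, Oxt and Pmch probes in each RNA; squares are Cy3 and circles Cy5 channels, and the SAMP8 LSO RNA was read on 4 arrays, the others on 2. The 4 panels span the same range at different positions; SAMR1 stood apart from SAMP8 for Hcrt and Avp, SAMP8 LSO stood apart for Oxt, and Pmch separated by dye.

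Npy, which is made in the arcuate nucleus and also outside the hypothalamus, was higher with WME on both diet arrays. Its probe, A_51_P454873, gave 0.16 and 0.14 (mean 0.15 ± 0.02, SD, 2 arrays, or 1.11-fold), and 404 of 26661 features (1.52%) were as high or higher. Normalized log2 intensities were 13.12 and 13.20 in SAMR1, 13.07, 13.06, 13.10 and 13.07 in SAMP8 LSO, and 13.23 and 13.19 in SAMP8 WME. The WME channels were above the SAMP8 LSO channels, and the SAMR1 channels lay above SAMP8 LSO and overlapped WME. The strain ratio of Npy was −0.08 ± 0.07, negative on both arrays, and the indirect ratio was 0.07 ± 0.08. Agrp, which blocks melanocortin receptors, had ratios of 0.01 ± 0.10 in the diet pair and 0.06 ± 0.08 in the strain pair. Its probe, A_51_P347965, was the dimmest of the 10, with raw signals of 2.18 to 2.59 times the local background, and the offset added to every spot pulls such ratios towards 0.

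The remaining members had ratios close to 0. Trh (A_51_P338278) gave −0.09 and 0.12 in the diet pair (mean 0.01 ± 0.15, SD, 2 arrays) and −0.18 and 0.03 in the strain pair (mean −0.08 ± 0.14). Gal (A_51_P258281) gave −0.03 ± 0.01 and 0.02 ± 0.05, and the brighter Cartpt probe (A_52_P208649) gave 0.00 ± 0.03 and 0.02 ± 0.06. The other Cartpt probe (A_51_P416152) had means of −0.02 ± 0.19 and −0.04 ± 0.26. Its single arrays read 0.11 and −0.15 in the diet pair and 0.15 and −0.22 in the strain pair. Both Cartpt probes changed sign with the dyes, but the brighter one stayed within 0.06 of 0. Indirect ratios were −0.06 ± 0.21 for Trh, −0.01 ± 0.05 for Gal, 0.02 ± 0.07 for Cartpt and 0.07 ± 0.13 for Agrp.

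Depth differed little between the arrays: the median probe signal lay between 275 and 321 for Cy3 and between 306 and 357 for Cy5, and no probe spot was saturated. The member probes other than Agrp read from 12.2 times local background, the lowest channel of Trh, to 164 times, the highest of Npy. The number of arrays, 4 on 1 slide, limits the precision, and a slide effect could not be examined.

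The part of a ratio that reverses when dyes are exchanged, the dye term, was similar in both pairs for most member probes. It was 0.28 in the diet pair and 0.25 in the strain pair for Pmch, −0.15 and −0.14 for Oxt, and −0.11 and −0.10 for Trh. A dye term cancels in the mean of a pair and sets the SD over its 2 arrays, which therefore holds the dye bias of the probe as well as noise. The change of the dye term from pair to pair gives another estimate of the technical SD of a pair mean. It was 0.049 over all features and 0.044 over the 19908 features at least as bright as the dimmest member probe. In units of 0.044, the strain ratio of Hcrt was 11.4, that of Avp 8.12 and that of Oxt 6.66, and the diet ratio of Oxt was 6.41, that of Npy 3.42 and that of Hcrt 3.03. The largest of the remaining direct ratios was the strain ratio of Pmch, at 2.46. These figures compare RNAs, not groups of mice.

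**Figure D3:**
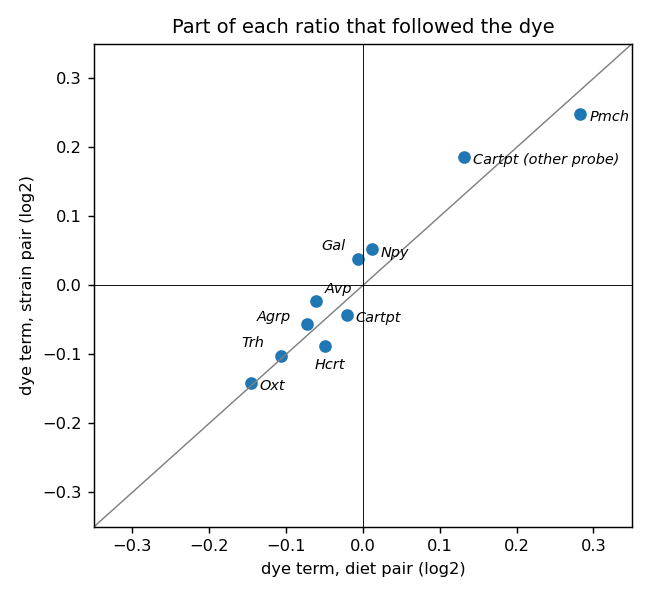
Dye term (log2) of each member probe in the diet pair (horizontal) and in the strain pair (vertical), with the line of equal values. Points lie close to the line; Pmch at 0.28 and 0.25 and Oxt at −0.15 and −0.14 are the extremes.

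The members as a set lay near the middle of the arrays. Their median ratio was 0.01 in the diet pair, beside 0.00 over all 26661 features, and 0.02 in the strain pair, beside −0.01 over all 26937. The median absolute ratio was 0.034 against 0.040 in the diet pair and 0.076 against 0.061 in the strain pair. In the strain pair Hcrt, Oxt and Agrp were above 0 on both arrays, Avp and Npy below 0, and 4 members changed sign, against 23.9%, 26.7% and 49.4% of all features. In the diet pair Hcrt and Npy were above 0 on both arrays, Oxt and Gal below, and 5 changed sign, against 20.5%, 17.6% and 61.8% of all features. The measured genes whose 4 array ratios were nearest to those of Hcrt, by Euclidean distance, were Prap1 at 0.12, Melk at 0.13 and Usp21 at 0.15. Their strain ratios were 0.42, 0.49 and 0.43.

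The receptors and binding proteins of these peptides were 24 genes, of which 21 were measured in the strain pair and 20 in the diet pair. They had no member past 1.5-fold in any comparison, where 0.0863% to 1.46% of all features passed. Between the strains 11 of 21 were below 0 on both arrays and 4 above, with a median of −0.06, where 26.7% of all features were below and 23.9% above. In the diet pair 8 of 20 were above 0 on both arrays and 2 below, with a median of 0.05, where 20.5% of all features were above and 17.6% below. The largest strain ratios were those of Avpr1a, given above, and of Trhr, the receptor of thyrotropin-releasing hormone, at −0.26 ± 0.13 (SD, 2 arrays). In the diet pair the largest were Npy5r, a feeding receptor of Npy, at 0.14 ± 0.04 and Hcrtr2 at 0.13 ± 0.04. The largest indirect ratios were −0.28 ± 0.21 for Avpr1a and 0.19 ± 0.12 for Galr3, a galanin receptor.

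The genes that cut, amidate and store the peptides had medians near 0 in both pairs. All 20 with a probe were measured and none passed 1.5-fold, beside 0.0863% of all features in the diet pair and 1.46% in the strain pair. The list medians were 0.02 in the diet pair and 0.01 in the strain pair. The latter was −0.05 when arrays were centred on the median with no loess, a setting that put the median of bright features at −0.07. Pcsk1, a prohormone convertase, had a strain ratio of 0.20 ± 0.05, and Chga, the granule protein chromogranin A, −0.27 ± 0.27 (SD, 2 arrays). In the diet pair Pcsk1n, an inhibitor of that convertase, read 0.14 ± 0.43 and Pcsk2, a second convertase, 0.14 ± 0.22. Dimmer probes read 0.01 ± 0.02 for Pcsk1n and 0.06 ± 0.10 for Pcsk2. In the indirect ratio Pcsk1 read 0.27 ± 0.11 and Chga −0.24 ± 0.37.

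Among 42 other neuropeptide precursor genes, 35 were measured in the diet pair and 34 in the strain pair. Pomc, the precursor of the melanocortins and beta-endorphin, was the single one past 1.5-fold, where 0.0863% of all features passed in the diet pair and 1.14% in the indirect ratio. It was higher with WME by 1.76 ± 0.15 (SD, 2 arrays, 3.39-fold), with 1.87 and 1.66 on the arrays, while its strain ratio was −0.13 ± 0.00 and its indirect ratio 1.64 ± 0.15 (3.11-fold). Pomc is made by arcuate neurons beside those of Agrp and Npy and, at high level, by the pituitary. In the strain pair the largest ratios were 0.25 ± 0.07 for Ghrh, growth hormone-releasing hormone, and −0.22 ± 0.22 for Nmb, neuromedin B. Medians of the list were 0.04 in the diet pair and −0.01 in the strain pair, and the latter turned to 0.0044 with the mean over a gene's probes.

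Hypothalamic transcription factors and regional markers, 29 of 39 measured, had no member past 1.5-fold, where 0.0863% to 1.46% of all features passed across the comparisons. All 10 pan-neuronal markers were well above background in these whole brain RNAs, while probes of the hypothalamic factors Sim1, Otp, Bsx and Six6 were not. Medians of the hypothalamic list were 0.01 in the diet pair, and −0.00044 with median centring, where bright features stood at 0.18, and 0.03 in the strain pair. In the diet pair Lhx1, a factor of the suprachiasmatic nucleus and also of the cerebellum, read −0.28 ± 0.11 and Hdc, which makes histamine, −0.13 ± 0.06 (SD, 2 arrays). In the strain pair Nnat, an imprinted gene abundant in hypothalamus, read 0.37 ± 0.19 and Dlx1, of forebrain interneurons, −0.36 ± 0.38. In the indirect ratio they read 0.45 ± 0.37 and −0.29 ± 0.50. Dio2, which activates thyroid hormone in tanycytes and astrocytes, read 0.17 ± 0.01 in the diet pair and −0.20 ± 0.03 in the strain pair. Vim, an intermediate filament gene in the same list, read −0.12 ± 0.22 and 0.21 ± 0.13. Of the 11 measured tanycyte markers 4 were above 0 on both diet arrays and 0 below, beside 20.5% and 17.6% of all features. On both strain arrays 5 were above and 3 below, beside 23.9% and 26.7%. In the indirect ratio the tanycyte markers Nes and Fndc3c1 read 0.22 ± 0.04 and 0.16 ± 0.11. Among the metabolic and steroid hormone receptors, 19 of 22 were measured and none passed, beside the same shares of all features, with medians of 0.03 in both pairs. Adipor2, an adiponectin receptor, read −0.46 ± 0.32 and Ntrk2, the receptor of Bdnf, 0.25 ± 0.06 in the strain pair, where a dimmer Ntrk2 probe read −0.03. Bdnf, the ligand listed with them, read 0.13 ± 0.00 and Ghr, the growth hormone receptor, 0.14 ± 0.22 in the diet pair. The indirect ratio of Bdnf was 0.34 ± 0.01 and that of Adipor2 −0.34 ± 0.39.

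Markers of other regions and cells of the brain also departed from 0. With WME all 12 measured cerebellar markers were below 0 on both arrays by their brightest probe, with a median of −0.23. A dimmer Car8 probe read 0.12 and −0.34, and the other dimmer probes of the list stayed below 0. Over all features 17.6% were below 0 on both diet arrays and 20.5% above. Cbln1, of granule cells, read −0.29 ± 0.08 and En2, of the mid-hindbrain, −0.27 ± 0.13 (SD, 2 arrays). Of 9 astrocyte markers 7 were below 0 on both arrays and 1 above, with a median of −0.11, Sox9 at −0.21 ± 0.05 and Aldh1l1 at −0.13 ± 0.04. Thalamic and midbrain markers, 13 in all, had a median of −0.06 with 5 below and 2 above, and the serotonin neuron genes Slc6a4 and Tph2 read −0.25 ± 0.12 and −0.23 ± 0.11. Above 0 lay the medians of 11 glutamatergic forebrain markers (0.11, with Tbr1 at 0.19 ± 0.05 and Neurod6 at 0.16 ± 0.19) and of 11 striatal markers (0.03, with Drd1 at 0.15 ± 0.03 and Pde10a at 0.14 ± 0.12). So did those of 10 olfactory bulb markers (0.07, with Tbx21 at 0.18 ± 0.08 and Cdhr1 at 0.15 ± 0.20) and of 8 choroid plexus and ependymal markers (0.06, with Aqp1 at 0.16 ± 0.26 and Kl at 0.15 ± 0.07). The 11 tanycyte and 10 pan-neuronal markers had medians of 0.00 and −0.01, and the pan-neuronal genes Map2 and Snap25 read 0.06 ± 0.23 and 0.06 ± 0.41. Centring on the median with no loess moved bright features as a whole, to a median of 0.18 over the 11335 features as bright as the members other than Agrp. Under it the cerebellar, thalamic and astrocyte medians were −0.03, 0.08 and 0.11, all below that level, and the pan-neuronal median was 0.21. These marker values stand beside the diet ratios of Oxt, Npy and Hcrt, and their part in those ratios was not tested.

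Between the strains all 8 measured choroid plexus and ependymal markers were below 0 on both arrays, with a median of −0.17. Over all features 26.7% were below 0 on both strain arrays and 23.9% above. Aqp1, a water channel of choroid plexus, read −0.55 ± 0.30 and Folr1, a folate receptor, −0.32 ± 0.32 (SD, 2 arrays). A dimmer Folr1 probe read −0.14 ± 0.04. Clic6, another of the 8 markers, had a dimmer probe that changed sign, at −0.23 and 0.04. Astrocyte markers were divided, 5 of 9 being above 0 on both arrays and 3 below, with a median of 0.08. Gfap and Aqp4 were the highest of them, at 0.55 ± 0.21 and 0.41 ± 0.10, and Fgfr3, named after its values were seen, was the lowest, at −0.10 ± 0.09. Olfactory bulb markers had a median of −0.12, with Doc2g at −0.40 ± 0.22 and Cdhr1 at −0.35 ± 0.20, and glutamatergic forebrain markers −0.10, with Tbr1 at −0.30 ± 0.06. The thalamic and midbrain median was −0.04, with Rora at 0.19 ± 0.06 and Th at −0.13 ± 0.09. The cerebellar median was 0.06, with Zic1 at 0.26 ± 0.24 and Car8 at 0.22 ± 0.08, and the striatal median 0.08, with Tac1 at 0.14 ± 0.10. Medians of the tanycyte and pan-neuronal markers were 0.03 and 0.00, and the pan-neuronal genes Syn1 and Snap25 read 0.14 ± 0.08 and −0.10 ± 0.36. A dimmer Syn1 probe read −0.12 ± 0.00. With median centring the features as bright as the members other than Agrp had a median of −0.07. The tanycyte and astrocyte medians, at −0.03 and −0.04 under it, lay above that level, and the pan-neuronal median, at −0.11, below it. The part of these marker values in the strain ratios of Hcrt, Avp and Oxt was not tested.

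In the indirect ratio Gfap read 0.44 ± 0.22 and Aqp4 0.31 ± 0.12, and Aqp1 −0.38 ± 0.40 and the ependymal gene Dynlrb2 −0.27 ± 0.06 (SDs of both pairs combined). The cerebellar genes Cbln1 and Slc1a6 read −0.26 ± 0.09 and −0.24 ± 0.20, and Slc6a4 and Tph2 read −0.36 ± 0.13 and −0.29 ± 0.12. The forebrain gene Camk2a read −0.17 ± 0.66, and the olfactory genes Doc2g and Cdhr1 −0.29 ± 0.32 and −0.21 ± 0.28. The striatal Drd1 read 0.24 ± 0.04. The pan-neuronal Syn1 and Eno2 read 0.13 ± 0.14 and −0.10 ± 0.12. The part of these genes in the indirect ratios of the members was not tested.

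Pituitary tissue can come with a dissected brain, and Avp and Oxt axons end in its posterior lobe. Of 16 pituitary markers 12 were measured, with medians of 0.02 in the diet pair and 0.03 in the strain pair. Pomc, which also stands in the list of precursors, was the single pituitary marker called at 1.5-fold, in the diet pair and in the indirect ratio. Over all features 0.0863% and 1.14% were called there. The prolactin gene Prl had a mean indirect ratio of 0.71 ± 0.30, but not all of its 4 sums passed. Of the 12 measured markers, 4 were above 0 on both diet arrays and 1 below, beside 20.5% and 17.6% of all features. The 1 below was Gal, which is also a member gene. The hormone genes named next were chosen after their values were seen. Gh, growth hormone, at 0.30 and 0.19 and Prl, prolactin, at 0.29 and 0.07 were above 0 on both diet arrays. Cga, at 0.05 and −0.03, and Fshb, at 0.05 and −0.04, changed sign. Prl had a strain ratio of 0.53 ± 0.26 and Pitx1, a pituitary transcription factor, one of 0.23 ± 0.08 (SD, 2 arrays). The pituitary median of the indirect ratio was 0.12, and 8 of 12 markers were above 0 in all 4 sums, beside 15.9% of all features. Of the members, Hcrt and Npy were above 0 in all 4 sums and Avp below. The part of pituitary RNA in the members' ratios was not tested.

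**Figure D4:**
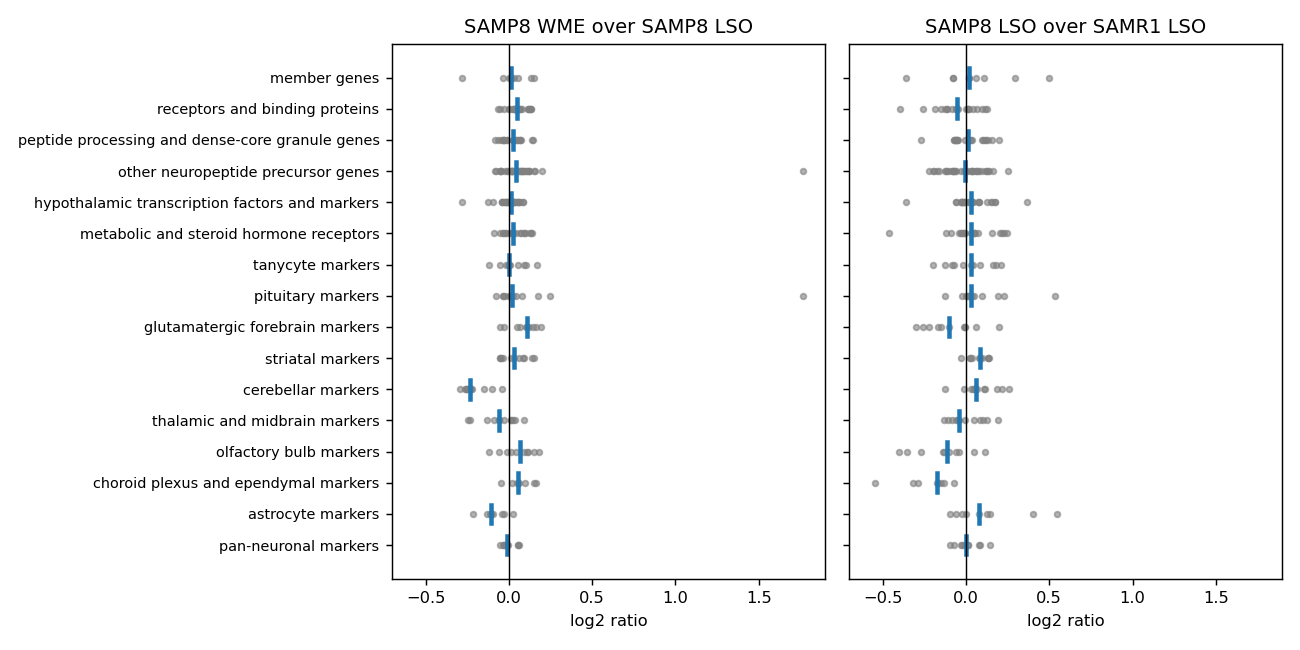
Log2 ratio (horizontal axis) of each measured gene in the member set and in 15 gene lists, for the diet pair (left) and the strain pair (right); each point is a gene and each bar a list's median. Cerebellar markers lie below 0 on the left, choroid plexus and ependymal markers below 0 on the right, and the point at 1.76 in 2 lists is Pomc.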

How the data were processed

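Whole brain RNA of 3 groups was read on 4 Agilent 2-colour arrays in 2 dye-swap pairs. The deposited intensity values are Agilent Feature Extraction 11.0.1.1 spot signals with local background, per the file headers. The authors' deposited series table holds log2 ratios of red over green processed signals, not turned for dye, and was not used further. Median spot intensities were background-corrected (normexp, offset 50) and loess-normalized within arrays, with control spots at weight 0, in limma 3.58.1 (R 4.3.3). Outlier spots were left out, ratios turned for dye and averaged per pair. Channel levels were scaled between arrays (Aquantile). Names came from RefSeq accessions (GRCm38.p6 table), 23374 of 41174 probes matching. A gene took its brightest probe. With 1 RNA a group no test was run. All members are described with every probe; from each list at most 3 genes past 1.5-fold, or the 2 with the largest ratio where none passed, are named, together with the receptors of Hcrt, Pmch and Avp and the 3 genes nearest to Hcrt, the member with the largest ratio. The receptors of Hcrt, Pmch and Avp outside that size rule were named after their values were seen. Some genes that this rule picks are not reported here. The members and lists were chosen with earlier results of these data known. Alternatives changed the background correction, normalization, offset, filter, outlier handling, probe choice and fold.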

Additional observations from a re-analysis of the deposited data

How the results depend on the processing

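No member was called at 1.5-fold, or at 2-fold, in any of the 3 comparisons, and that count stayed 0 under all 7 changes of processing. Over all features 0.0863%, 1.46% and 1.14% were called at 1.5-fold, so 0 of 9 says little about the members. The mean indirect ratio of Hcrt was 1.55-fold, but not all of its 4 sums passed. At 1.3-fold the count of members called was 0 in the diet pair, 1 in the strain pair and 1 in the indirect ratio (Hcrt). Of the 27 member ratios, 16 kept their sign under every alternative run and 11 turned in at least 1. Those 11 were the diet and strain ratios of Gal, Cartpt and Agrp and the indirect ratios of these genes, Oxt and Trh, all within 0.08 of 0 as reported. The strain ratio of Hcrt ran from 0.44 to 0.51 and that of Avp from −0.42 to −0.36. The strain ratio of Oxt ran from 0.24 to 0.30 and its diet ratio from −0.30 to −0.12, and the diet ratio of Npy ran from 0.13 to 0.34. Centring on the median with no loess moved 13 of 27 values by more than their SD. It also moved the median of the 11335 features as bright as the members other than Agrp, to 0.18 in the diet pair, −0.07 in the strain pair and 0.11 in the indirect ratio. Diet values of Hcrt (0.31), Npy (0.34) and Oxt (−0.12) under it are therefore read against 0.18. Features called over the whole array rose from 23, 394 and 302 to 103, 756 and 542 with processed signals and fell to 9, 139 and 101 at 2-fold. No paired analysis was possible because each pair of arrays holds 1 RNA per group and no result comes from a test. Leaving out an array leaves a ratio with its dye term, so single-array values stand in the report instead.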
